A study of Mus musculus with 8 samples.

Results

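Aldehydes reach the lens from tobacco smoke, from lipid peroxidation and from sugar metabolism, and the lens clears them with enzymes of several families. Aldehyde dehydrogenases oxidize an aldehyde to its acid, aldo-keto reductases reduce it to an alcohol, alcohol dehydrogenase 5 oxidizes formaldehyde bound to glutathione, and the glyoxalase system turns methylglyoxal into lactate. In the polyol pathway, aldose reductase converts glucose to sorbitol and sorbitol dehydrogenase converts sorbitol to fructose. Sorbitol that builds up in the lens is the textbook route to sugar cataract, and the mouse lens is known for little aldose reductase activity.

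The RNA of 10 such genes was followed in lens fiber cells (FC), the elongated cells that fill the lens: Aldh1a1, Aldh3a1, Aldh2, Aldh7a1, Aldh9a1, Akr1a1, Akr1b3, Sord, Adh5 and Glo1. They were taken by gene symbol from a table of 35275 rows, and each symbol matched 1 row. In the GRCm38 annotation each lies on a chromosome of its own, Aldh1a1 on chr19:20492715-20643465 (plus strand), Adh5 on chr3:138443093-138455499 (plus), Sord on chr2:122234749-122265340 (plus) and Akr1b3 on chr6:34302434-34317478 (minus). Levels are in FPKM (fragments per kilobase of gene length, scaled to the mapped reads of the library). Genes were tested when the mean of one or both groups reached 1.0 FPKM, which 9794 genes did, the 10 among them. The mice were of strain C57BL/6 (C57BL/6J in the study's methods), and the labels name no genetic change in either group. The CS group was exposed to cigarette smoke (CS) in a whole-body chamber for 5 hours a day, 5 days a week, over 3.5 months, from shortly after birth, after the pregnant dams had been placed in it, and the Ct group was untreated and of the same age. Each group has 4 libraries, and each library is 1 pool of FC from the eyes of 4 mice, separated from the epithelium with forceps under a microscope. Pools of males and of females were made in both groups, but the labels do not say which library is which, so sex was not examined here.

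The estimated depth lay between 18100000 and 23300000 fragments per library. The 7 fiber markers examined summed to 144921 to 156095 FPKM per library. Lens epithelium genes were present in every library. Foxe3, a transcription factor of the lens epithelium, was highest in Ct replicate 3 at 64.0 FPKM and lay between 17.5 and 34.8 FPKM in the other 7 libraries. The 9 epithelium markers together ranged from 188.8 to 256.0 FPKM in Ct and from 179.4 to 209.0 FPKM in CS-exposed libraries. A large part of this sum came from Itga6, at 90.1 to 97.9 FPKM over all libraries, and Cdh2, at 32.7 to 34.1 FPKM. Both varied little, so the sum does not measure how much epithelial RNA the pools held. All 9 had a lower mean in CS, and 48.8% of all genes tested had a log2 fold change below 0. Cdh2 and Itga6 were nearly level, with a log2 fold change of -0.01 each. Npnt had an unadjusted limma p under 0.05 (5.20 FPKM in Ct and 3.71 FPKM in CS). The mean log2 level of the 9 markers differed by -0.23 between groups (CS minus Ct, exact permutation p = 0.257). RNA of rod photoreceptors was higher in all CS-exposed libraries, with 8 markers summing to 30.9 to 86.8 FPKM against 10.5 to 27.1 FPKM in Ct (exact permutation test on the mean log2 level, p = 0.0286, the smallest possible). Pigment epithelium markers were higher as well, with 5 genes at 1.75 to 12.5 FPKM in CS and 0.646 to 0.867 FPKM in Ct, and Best1 listed at 0 throughout. The 3 blood markers summed to 0.50 to 20.8 FPKM in CS and 0.187 to 1.59 FPKM in Ct (exact permutation p = 0.0857), with CS replicate 4 the highest. In pooled tissue, fewer cells of a type and less RNA per cell cannot be told apart.

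Across the 10 genes, the levels in lens FC spanned a wide range and kept much of their order from library to library. Sord had the highest mean over the 8 libraries at 116.1 FPKM, rank 303 of all rows, and Aldh2 the lowest at 4.10 FPKM, rank 5318. Akr1a1 followed Sord at 109.1 FPKM, and their ranges overlapped, Sord being higher in 7 of 8 libraries. Aldh1a1 at 80.9 FPKM and Glo1 at 77.5 FPKM came next and could not be ordered, since Aldh1a1 was the higher in 5 of 8 libraries. Aldh3a1 averaged 34.1 FPKM, Adh5 23.7 FPKM and Aldh7a1 20.9 FPKM, with overlapping ranges between neighbours. The lowest 3 were Aldh9a1 at 8.77 FPKM, Akr1b3 at 6.19 FPKM and Aldh2. All 8 libraries put Aldh9a1 above Akr1b3 and Akr1b3 above Aldh2, although their ranges over libraries overlapped. The order of genes depends on the gene lengths used for FPKM. For Glo1 the values imply about 1930 bases, against 12101 in the annotation used here.

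**Figure D1:**
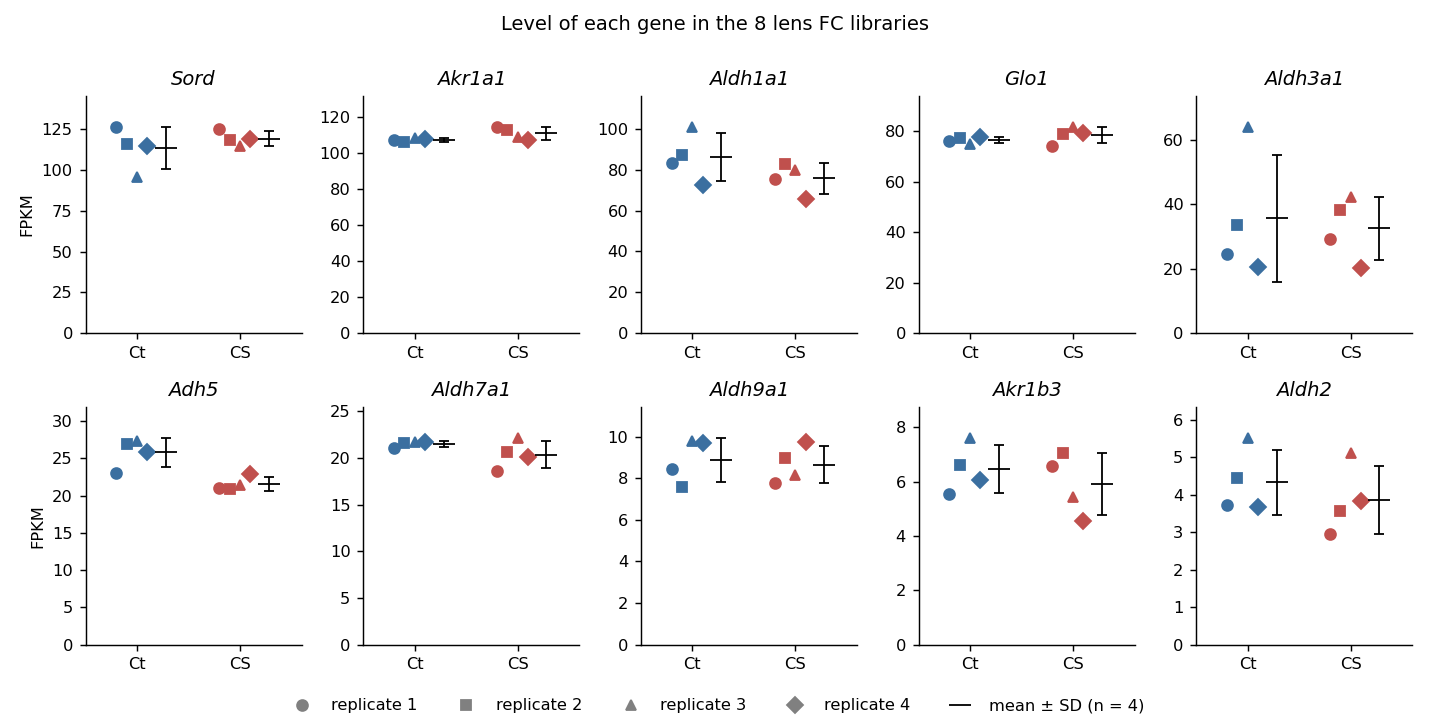
FPKM (y axis, from 0) of each of the 10 genes in the 4 untreated Ct (blue) and 4 CS-exposed (red) libraries, with symbols for the replicate and a bar for the mean ± SD (n = 4). Adh5 is the gene whose groups do not overlap, with the CS-exposed libraries between 20.9 and 22.9 FPKM and the Ct libraries between 23.1 and 27.4 FPKM, and Aldh3a1 has the widest spread within groups.

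Between CS-exposed and untreated Ct mice, none of the 10 genes passed an adjusted p of 0.05 (limma on log2(FPKM + 0.1), Benjamini-Hochberg adjustment over 9794 genes, lowest adjusted p = 0.956), where 1 of the 9794 genes tested, 0.0102%, did. At an unadjusted p under 0.05, 1 of the 10 was lower (Adh5) and 0 were higher in CS-exposed mice, against 2.08% lower and 2.75% higher among all genes tested. The median log2 fold change of the 10 genes was -0.06, with 7 values below and 3 above 0. Over all genes tested the median was 0.00, with 48.8% of values below 0. The median absolute log2 fold change was 0.081 for the 10 genes and 0.084 for all genes tested. p-values measure the spread between pools, and the permutation test of 4 against 4 libraries cannot go below 0.0286.

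Adh5 encodes the glutathione-dependent formaldehyde dehydrogenase, which also breaks down S-nitrosoglutathione. Its level in untreated Ct libraries was 23.1, 27.0, 27.4 and 25.9 FPKM, and in CS-exposed libraries 21.0, 20.9, 21.4 and 22.9 FPKM. Every CS-exposed library lay below every Ct library, although the gap between the nearest of them, 22.9 and 23.1 FPKM, was small beside the range within Ct. The means were 25.8 ± 1.93 and 21.6 ± 0.943 FPKM (SD, n = 4), a log2 fold change of -0.26 with a standard error of 0.07 and a 95% interval of -0.41 to -0.11, or 0.837-fold. The unadjusted limma p was 0.00287 and the adjusted p 0.956, and the two-sided exact permutation test gave p = 0.0286. Adh5 was the 1 of the 10 whose groups did not overlap, which 3.08% of all genes tested showed in either direction and 1.29% in this one. The unadjusted p of Adh5 stayed under 0.05 in 20 of 21 alternative analyses, with an adjusted p of at least 0.61 in each, and rose to 0.0882 with the mean level of the rod markers as a covariate (log2 fold change -0.21). The rod markers separate the groups without overlap, so that their part in the difference cannot be told apart from that of CS exposure.

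The product of Adh5, S-formylglutathione, is hydrolysed to formate by the esterase Esd. Esd averaged 30.4 ± 1.31 FPKM in Ct and 31.2 ± 3.40 FPKM in CS-exposed libraries (SD, n = 4), a log2 fold change of 0.03 with a 95% interval of -0.14 to 0.20. The mean of Esd was thus not lower where that of Adh5 was. No other alcohol dehydrogenase on the list reached the minimum level. Adh1 had the highest mean among them at 0.543 FPKM, Adh7 followed at 0.192 FPKM and Adh4 was listed at 0 in every library.

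The 250 bases before the transcription start are shown for Adh5, since its groups did not overlap, and for Aldh1a1, the most abundant aldehyde dehydrogenase. They come from RefSeq on GRCm38.p6, where such windows were found for 6 of the 10 genes (Adh5, Akr1a1, Aldh1a1, Aldh9a1, Glo1 and Sord). Capitals mark the letters TGANNNNGC on either strand, the core of the antioxidant response element bound by Nrf2. Adh5 and Aldh1a1 each have 2 starts and so 2 windows, of which 1 is shown. The Adh5 window shown, chr3:138442843-138443092 on the plus strand, ends 1 base before the annotated gene, which begins at 138443093. The Aldh1a1 window shown, chr19:20601718-20601967 on the plus strand, lies inside the annotated gene (20492715 to 20643465).
Adh5: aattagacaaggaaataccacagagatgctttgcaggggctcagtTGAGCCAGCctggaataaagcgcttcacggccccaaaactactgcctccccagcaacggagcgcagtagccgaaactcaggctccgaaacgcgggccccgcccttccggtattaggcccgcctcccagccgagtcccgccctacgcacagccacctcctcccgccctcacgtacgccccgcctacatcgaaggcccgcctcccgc
Aldh1a1: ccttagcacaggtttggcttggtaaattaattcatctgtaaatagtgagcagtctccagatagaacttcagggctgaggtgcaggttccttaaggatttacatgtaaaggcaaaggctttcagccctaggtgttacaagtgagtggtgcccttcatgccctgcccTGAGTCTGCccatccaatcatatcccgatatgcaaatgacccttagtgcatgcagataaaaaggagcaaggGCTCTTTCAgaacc
The core occurred at 1 place in each Adh5 window and at 2 places in each Aldh1a1 window. Of the 8 windows of the 6 genes, 6 held it, and 35.2% of all 32851 windows of this length did. Adh5 and Aldh1a1 count with 2 windows each, and by gene 4 of the 6 held the core. GCGTG, the core of the element bound by the aryl hydrocarbon receptor, was searched on both strands too and was found in 1 of the 8 windows, that of Aldh9a1, against 28.2% of all windows. A match describes letters only, and no match says only that these letters are not in the window.

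Aldh1a1 gave the largest single part of the aldehyde dehydrogenase RNA of lens FC, though less than the other 19 genes together. This cytosolic enzyme oxidizes retinal and the lipid aldehyde 4-hydroxynonenal and is known as an abundant protein of lens and cornea. It made up 48.1, 47.3, 43.3 and 46.4% of the summed FPKM of 20 aldehyde dehydrogenase genes in the Ct libraries and 46.7, 44.8, 41.9 and 43.3% in the CS-exposed ones. The groups overlapped, with means of 46.3 ± 2.11 and 44.2 ± 2.09% (SD, n = 4) and a difference of -2.10 percentage points (exact permutation p = 0.229). Aldh3a1 gave a further 13.1 to 27.4% in Ct and 13.4 to 22.2% in CS-exposed libraries.

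**Figure D2:**
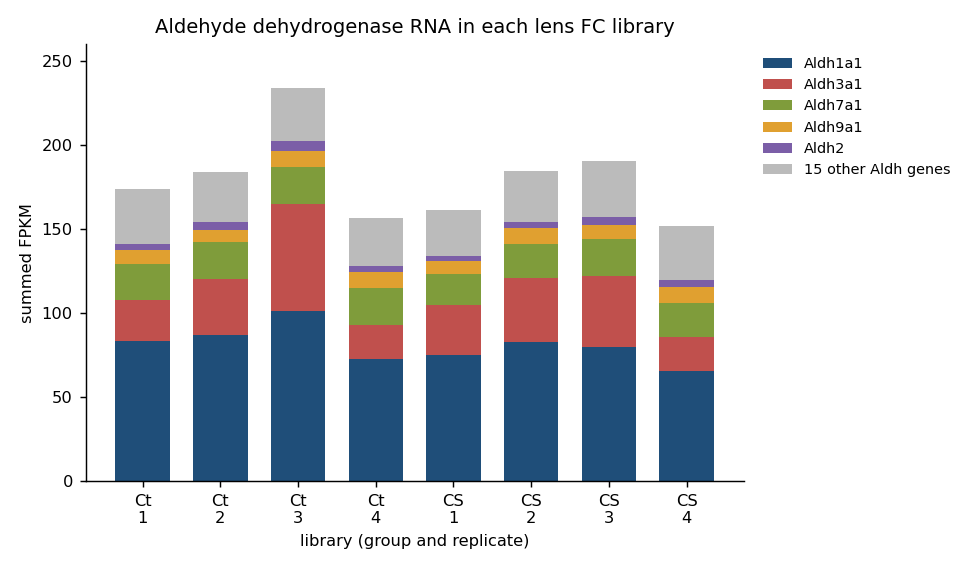
Summed FPKM (y axis, from 0) of 20 aldehyde dehydrogenase genes in each of the 8 libraries (x axis, group and replicate), divided into the 5 genes described here and the 15 others. The sums lie between 151.5 and 233.6 FPKM, and Ct replicate 3 stands highest, with the largest Aldh3a1 share at 27.4%.

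Aldh1a1 reached 83.4, 87.0, 101.1 and 72.6 FPKM in Ct and 75.3, 82.6, 79.7 and 65.5 FPKM in CS-exposed libraries. The means were 86.0 ± 11.7 and 75.8 ± 7.47 FPKM (SD, n = 4), and 1 CS-exposed library lay below all Ct libraries. The log2 fold change was -0.18 (SE 0.10, 95% interval -0.39 to 0.03, exact permutation p = 0.2, limma adjusted p = 0.956). Aldh1a1 did not pass the test, and the interval runs from 0.763- to 1.02-fold. The unadjusted p fell under 0.05 in 4 of 21 alternatives (0.00204 to 0.0329), among them the one without Ct replicate 4 (log2 fold change -0.26). Without Ct replicate 3 the log2 fold change was -0.097, and without CS replicate 4 it was -0.11.

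Aldh3a1, which oxidizes medium-chain and aromatic aldehydes and is the main soluble protein of the mouse cornea, varied most. It was read at 24.6, 33.5, 64.1 and 20.5 FPKM in Ct and at 29.3, 38.1, 42.2 and 20.3 FPKM in CS-exposed libraries. The highest and the lowest library differed 3.16-fold. The groups overlapped, with CS replicate 4 just below the lowest Ct library. The variation within Ct was 55.2% of the mean, far above the 3.16% that counting error alone would give. Between groups the log2 fold change was -0.04 with a 95% interval of -0.73 to 0.64 (limma adjusted p = 0.995), an interval of 0.602- to 1.56-fold. Without Ct replicate 3 it was 0.28 and without CS replicate 4 it was 0.16, neither with a p under 0.05.

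The other 3 aldehyde dehydrogenases were steadier or lower. Aldh7a1, antiquitin, acts on an aldehyde of lysine breakdown and on betaine aldehyde. It stood at 21.1, 21.6, 21.7 and 21.7 FPKM in Ct and at 18.6, 20.6, 22.2 and 20.1 FPKM in CS-exposed libraries. The Ct libraries varied by 1.39% of their mean, within the 2.37% of counting error, while 3 of 4 CS-exposed libraries lay below them and 1 above (log2 fold change -0.08, 95% interval -0.22 to 0.06, adjusted p = 0.956 by limma). Its exons share 300 bases with those of Phax on the opposite strand, and whether counting used strand is not given in the sources used here. Aldh9a1, which handles aldehydes from polyamines and carnitine synthesis, ranged from 7.58 to 9.81 FPKM in Ct and from 7.80 to 9.76 FPKM in CS-exposed libraries (log2 fold change -0.03, interval -0.26 to 0.20). Aldh2, the mitochondrial enzyme that clears acetaldehyde, was read at 3.72, 4.44, 5.52 and 3.66 FPKM in Ct and at 2.94, 3.56, 5.12 and 3.83 FPKM in CS-exposed libraries. Its log2 fold change was -0.17 with a 95% interval of -0.55 to 0.21, on 240 to 496 reads per library, and it ran from -0.31 without CS replicate 3 to -0.051 without Ct replicate 3.

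The reducing enzymes of the group did not pass the test either. Akr1a1, aldehyde reductase, reduces many aldehydes and takes part in ascorbate synthesis in mice. It was 107.1, 106.0, 108.3 and 107.8 FPKM in Ct and 114.6, 112.8, 108.7 and 107.2 FPKM in CS-exposed libraries. The Ct values varied by 0.912%, less than the 1.44% expected from counting, and 3 of 4 CS-exposed libraries lay above them. The log2 fold change was 0.05 (95% interval -0.04 to 0.14, or 0.971- to 1.10-fold, adjusted p = 0.969 by limma). 

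In the polyol pathway the RNA of the second enzyme, Sord, had a higher FPKM than that of the first, Akr1b3, whose level is uncertain. Akr1b3, aldose reductase, was 5.55, 6.61, 7.61 and 6.06 FPKM in Ct and 6.58, 7.07, 5.43 and 4.56 FPKM in CS-exposed libraries. Sord, sorbitol dehydrogenase, was 126.5, 115.8, 95.5 and 114.8 FPKM in Ct and 125.0, 118.3, 114.3 and 118.7 FPKM in CS-exposed libraries. Per gene length, Sord exceeded Akr1b3 22.8-, 17.5-, 12.6- and 18.9-fold in the Ct libraries and 19.0-, 16.7-, 21.0- and 26.0-fold in the CS-exposed ones. These folds depend on the gene length used for FPKM. The values imply about 3250 bases for Akr1b3 and 2350 for Sord, against 8384 and 2352 in the annotation used here. The log2 ratio of Akr1b3 to Sord averaged -4.13 ± 0.36 in Ct and -4.35 ± 0.27 in CS (SD, n = 4), a difference of -0.22 (exact permutation p = 0.371). Sord alone differed by 0.08 (95% interval -0.08 to 0.24) and Akr1b3 by -0.14 (-0.45 to 0.18) on the log2 scale, and neither passed the test. Without Ct replicate 3 the difference was 0.0010 for Sord and -0.055 for Akr1b3, and without Ct replicate 1 it was 0.14 and -0.21. Akr1b3 also moved to -0.23 without CS replicate 2 and to -0.021 without CS replicate 4. The Akr1b3 level is uncertain. In the annotation used here, 3 processed pseudogenes match its transcript at over 99% identity along 948 to 951 bases and a further entry, Gm38056, at 99.7% over 1352 bases, and reads from these stretches may not have been counted for it. Sord has such a copy too, Gm6652, at 99.3% identity over 1070 bases.

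Of the other 9 genes of the polyol and fructose list, 5 were tested and 0 had an unadjusted p under 0.05. The glucose transporter Slc2a1 averaged 33.7 FPKM over all libraries, the taurine transporter Slc6a6 19.1 FPKM and ketohexokinase Khk, which phosphorylates fructose, 8.05 FPKM. Slc2a1 ranged from 27.5 to 44.9 FPKM in Ct and from 28.4 to 35.5 FPKM in CS-exposed libraries, with Ct replicate 3 again the highest. Slc2a5, the fructose transporter, stayed at or below 0.0545 FPKM in every library.

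Glo1, glyoxalase 1, converts the adduct of methylglyoxal and glutathione to S-lactoylglutathione, which Hagh hydrolyses. Glo1 was 76.1, 77.2, 74.9 and 77.9 FPKM in Ct and 74.1, 78.7, 81.8 and 79.2 FPKM in CS-exposed libraries. The variation within Ct, 1.68%, was no larger than the 1.83% of counting error. The log2 fold change of 0.04 had a 95% interval of -0.06 to 0.14 (0.956- to 1.10-fold, limma adjusted p = 0.985). A processed pseudogene, Gm13443, matches Glo1 at 96.0% over 575 bases and was listed at 0.739 FPKM on average. Among 5 tested genes of 6 on the list of glycation repair, 0 had an unadjusted p under 0.05. Park7, also called DJ-1, was by far the most abundant at 841.7 ± 14.3 FPKM in Ct and 853.3 ± 12.7 FPKM in CS-exposed libraries. The kinase Fn3krp, which removes sugar adducts from proteins, averaged 30.1 FPKM and Hagh 28.5 FPKM.

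**Figure D3:**
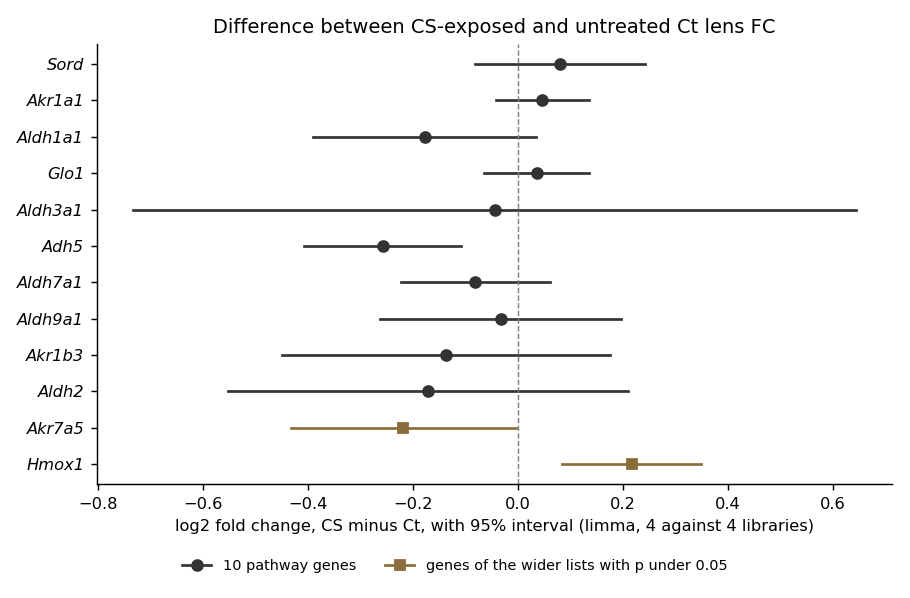
Difference in log2 level of CS-exposed less untreated Ct libraries (x axis) with its 95% interval from limma (4 against 4 libraries) for the 10 genes in order of level, and for Akr7a5 and Hmox1 of the wider lists. The interval of Adh5, -0.41 to -0.11, is the only one of the 10 that leaves out 0, and that of Aldh3a1, -0.73 to 0.64, is the widest.

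The wider lists gave no adjusted call. They hold 69 further genes, of which 34 were tested and 35 lay below the minimum level. At an unadjusted p under 0.05, 1 was lower and 1 higher, 5.88% of those tested against 4.83% of all genes, and the median log2 fold change was 0.02. The 8 tested of 15 other aldehyde dehydrogenases held 0 such genes. Among them Aldh6a1, of valine breakdown, averaged 7.46 FPKM, Aldh18a1, of proline synthesis, 6.13 FPKM and Aldh1a7, a close relative of Aldh1a1, 5.58 FPKM. In the list of aldo-keto and carbonyl reductases 8 of 20 genes were tested. Akr7a5, an aldehyde reductase, was lower in CS-exposed mice, with between 13.8 and 16.6 FPKM in Ct and between 10.8 and 14.3 FPKM in CS-exposed libraries. Its groups overlapped (log2 fold change -0.22, 95% interval -0.43 to -0.0045, limma adjusted p = 0.956), and the unadjusted p was 0.05 or more in 10 of 21 alternatives, 5 of them leaving out 1 library. Carbonyl reductase Cbr1 averaged 15.6 FPKM and Dhrs4 7.30 FPKM, and neither had an unadjusted p under 0.05.

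Among 14 genes known to respond to smoke through the aryl hydrocarbon receptor or Nrf2, 7 were tested. Hmox1, heme oxygenase 1, was 297.8, 317.8, 259.7 and 299.4 FPKM in Ct and 327.3, 325.9, 361.4 and 347.9 FPKM in CS-exposed libraries. The groups did not overlap, as in 1.80% of all genes in this direction, and the log2 fold change was 0.22 (SE 0.06, 95% interval 0.08 to 0.35, limma adjusted p = 0.956). Cyp1a1 and Cyp1a2, the classical targets of the aryl hydrocarbon receptor, were listed at 0 in all 8 libraries. Nqo1, a quinone reductase under Nrf2, averaged 1.23 FPKM, with a limma adjusted p of 0.995. Gsta3, a glutathione S-transferase below the minimum level, was at 0.108 to 0.169 FPKM in Ct and 0.314 to 0.475 FPKM in CS-exposed libraries, on 6 to 28 reads, and was not tested. The glutathione synthesis subunits Gclc and Gclm averaged 26.0 and 24.3 FPKM, with log2 fold changes of -0.12 (-0.27 to 0.04) and 0.02 (-0.11 to 0.16).

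Aldh3a1, Aldh1a1 and Aldh2, whose means were lower in CS-exposed libraries like those of the lens epithelium markers, varied between libraries together with these markers. Each of the 10 genes was compared with the mean log2 level of 9 lens epithelium and of 8 corneal epithelium markers over the 8 libraries, 20 relations in all, by exact permutation. Aldh1a1 had r = 0.890 (exact p = 0.00255, adjusted 0.0291; Spearman rho = 0.881, p = 0.00724, adjusted 0.107) and 0.656 without the 2 libraries farthest from the median. For Aldh3a1, r was 0.880 (exact p = 0.00437, adjusted 0.0291; rho = 0.857, p = 0.0107, adjusted 0.107) and 0.764 without those libraries. For Aldh2, r was 0.860 (exact p = 0.00308, adjusted 0.0291; rho = 0.667, p = 0.0831, adjusted 0.277) and 0.782 without them. Sord ran the other way, with r = -0.874 (exact p = 0.0163, adjusted 0.0817; rho = -0.667, p = 0.0831, adjusted 0.277) and -0.415 without them. Ct replicate 3 carried much of this. Leaving it out gave r = 0.759 for Aldh1a1, 0.727 for Aldh3a1, 0.797 for Aldh2 and -0.492 for Sord, and only Aldh2 kept an unadjusted exact p under 0.05 (0.0302). After each group was centred on its own mean, r was 0.860 for Aldh1a1, 0.962 for Aldh3a1, 0.846 for Aldh2 and -0.857 for Sord. With Foxe3, Cdh1 and Gja1 alone as markers, which were picked after the pattern was seen and are therefore given with no test, r was 0.838 for Aldh1a1, 0.875 for Aldh3a1, 0.904 for Aldh2 and -0.873 for Sord. Without the 2 libraries farthest from the median it was 0.693, 0.910, 0.772 and -0.449.

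**Figure D4:**
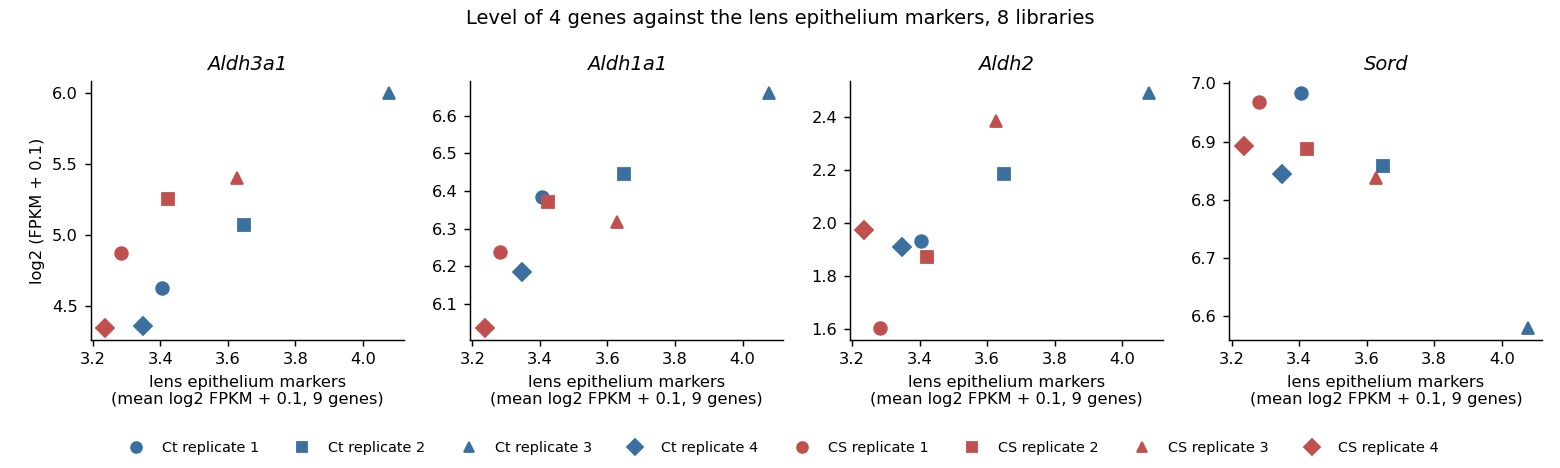
Log2(FPKM + 0.1) of Aldh3a1, Aldh1a1, Aldh2 and Sord (y axes) against the mean log2(FPKM + 0.1) of 9 lens epithelium markers (x axis) in 4 Ct (blue) and 4 CS-exposed (red) libraries, with a symbol for each replicate. Ct replicate 3 lies at the far right of each panel, with the highest Aldh3a1 (64.1 FPKM) and the lowest Sord (95.5 FPKM).

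No relation with the corneal markers passed the adjustment. All 8 corneal epithelium markers summed to 7.20 to 25.4 FPKM in Ct and to 3.28 to 23.0 FPKM in CS-exposed libraries, and 4 of them (Krt5, Krt13, Krt15 and Sfn) averaged at least 1 FPKM. Of the 8, 7 had a lower mean in CS, and their mean log2 level differed by -0.56 between groups (CS minus Ct, exact permutation p = 0.314). Krt13 had an unadjusted limma p under 0.05 (log2 fold change -1.06), and Krt14, below the minimum level, was at 0.358 to 0.977 FPKM in Ct and at 0.0861 to 0.230 FPKM in CS. The corneal keratin Krt12 was at 0 in 6 of 8 libraries and at most 0.0895 FPKM, while Krt15 reached 13.4 FPKM. Of the stromal genes, Kera was above 0 in 1 library, at 0.110 FPKM, while Ptgds, also on the stromal list, was at 111.5 to 140.5 FPKM in every library. The part of lens or corneal epithelial cells in the levels of Aldh3a1, Aldh1a1 and Aldh2 was not tested directly. With the epithelium markers as a covariate, chosen after the data were seen, the log2 fold change of Aldh3a1 was 0.46 (SE 0.11, limma adjusted p = 0.531), that of Aldh1a1 -0.05, that of Aldh2 0.046 and that of Adh5 -0.22 (limma adjusted p = 0.924). With the rod markers in place of them it was -1.04 for Aldh3a1 (limma adjusted p = 0.634), -0.47 for Aldh1a1 (limma adjusted p = 0.563) and -0.61 for Aldh2 (limma adjusted p = 0.639), so that the direction for Aldh3a1 and Aldh2 and the size for Aldh1a1 rest on which covariate is chosen.

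The genes most like Adh5, Aldh1a1 and Aldh7a1, the 3 with the smallest p, were looked up among the 2744 genes that averaged 10 FPKM or more, by Pearson's r over the 8 libraries, as a description. Rbm39, an RNA-binding protein, ran closest to Adh5 (r = 0.924), followed by Afg3l1 (0.881) and Nelfe (0.864). Aldh1a1 was matched best by Foxe3 (r = 0.973), then by the glycolytic enzyme Eno1 (0.956) and the semaphorin receptor Plxnb2 (0.955). Taldo1, of the pentose phosphate pathway, ran closest to Aldh7a1 (r = 0.951), with Ltbr at 0.936 and Atxn2l at 0.933.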

How the data were processed

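RNA was measured by RNA-seq (paired reads of 150 bases, NEB Next Ultra libraries) in 4 untreated Ct and 4 CS-exposed pools of lens FC from 4 mice each. Per the submitters' processing notes, reads were aligned with STAR 2.5 to GRCm38 (mm10) and counted with HTSeq 0.6.1. The annotation release is not given in the sources used here. The authors deposited FPKM per gene and library. The same table holds group means, log2 fold changes and p-values of the authors' own comparison, which were not used. Low FPKM values are whole multiples of 1 read, so whole reads were recovered for 99.7% of the 9794 genes tested (tolerance 0.001) and gave the estimated depth. Counting error is largest for the genes with the fewest reads and covers sampling of reads only.

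Genes whose mean reached 1.0 FPKM in one or both groups were tested with limma 3.58.1 (R 4.3.3, lmFit, eBayes with trend) on log2(FPKM + 0.1), which understates the fold change of low genes, with Benjamini-Hochberg adjustment over all genes. Single values were tested by two-sided exact permutation over 70 assignments, and correlations over all orders of the libraries. The fit was also run on simulated reads with the same spread for every gene and no variation shared between genes. It therefore says nothing about such shared variation in these libraries. Alternatives were pseudocounts of 1 and 0.01, other filters, scalings and variance models, limma-voom on recovered reads, a replicate block and leaving out each library. After the data were seen, marker covariates and Foxe3, Cdh1 and Gja1 alone were added. Transcripts of the 10 genes were searched against GENCODE M21 (GRCm38) with blastn 2.17.0 for other genes with at least 95% identity over 150 bases.

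The members, lists, markers and tests were chosen with earlier results of these data known. The genes named are the 10 members, in each wider list those with an unadjusted p under 0.05 and the 3 with the highest mean, markers, near-identical copies, and the 3 most correlated genes for each of the 3 members with the smallest p. Slc2a5, Adh4, Cyp1a1, Cyp1a2, Nqo1 and Gsta3 were added after their values were seen. Lim2, which has 2 rows, was left out of the fiber markers.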

Additional observations from a re-analysis of the deposited data

How the results depend on the processing

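Adh5 kept its direction in all 21 alternatives and its unadjusted p under 0.05 in 20 of them, the exception being the rod covariate. Of 545 values for 26 named genes, 476 kept direction and side of the unadjusted threshold of 0.05, 12 crossed to a p under it, 12 crossed out of it and 45 changed direction, and no cause of these moves was tested. Log2 values stand for CS minus Ct.

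Genes with an adjusted p under 0.05 numbered 1 in the fit as reported (limma, 473 at an unadjusted p under 0.05), 0 with no minimum FPKM (862 unadjusted), 0 with eBayes without a trend (498 unadjusted), 2 with limma-voom on recovered reads, 2 with the epithelium covariate, 0 with the rod covariate (716 unadjusted) and 1 with a minimum of 5 FPKM (226 unadjusted, with fewer genes tested). Rescaling without crystallins turned 204 lower and 269 higher genes (unadjusted) into 287 and 200, the rod covariate into 565 and 151, and the epithelium covariate into 147 and 322. Members with an unadjusted p under 0.05 numbered 2 with limma-voom (Aldh1a1 added), 2 with the epithelium covariate (Aldh3a1 added) and 3 with the rod covariate (Aldh1a1, Aldh2 and Aldh3a1, without Adh5), against 1. In the wider lists there were 5 with no minimum, 1 without a trend, 1 with limma-voom and 4 with the rod covariate, against 2.

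The labels do not say that equal replicate numbers pair the pools, and the fit as reported did not pair them. Deviations of same-numbered Ct and CS libraries correlated at 0.01, 0.08, 0.11 and 0.16, and those of differently numbered libraries at -0.03 on average. The standard error fell from 0.314 to 0.125 for Aldh3a1 and from 0.097 to 0.057 for Aldh1a1 with a replicate block. For Adh5 it was 0.068 without and 0.069 with the block. With a replicate block, 5 genes passed the adjusted test, 2 members (Adh5 and Aldh1a1, p = 0.0127) and 1 gene of the wider lists had an unadjusted p under 0.05, and the exact p within pairs was 0.5 for the Akr1b3 to Sord ratio and 0.125 for the Aldh1a1 share, where 0.125 is the smallest possible.

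Leaving out 1 library at a time gave 0 (without Ct replicate 4) to 1 adjusted call, 1 to 2 members (2 without Ct replicate 4) and 1 to 3 genes of the wider lists. The log2 fold change ranged from -0.26 to 0.28 for Aldh3a1, -0.26 to -0.097 for Aldh1a1, -0.31 to -0.051 for Aldh2, -0.12 to -0.038 for Aldh7a1, -0.23 to -0.021 for Akr1b3, 0.0010 to 0.14 for Sord, 0.030 to 0.062 for Akr1a1, 0.015 to 0.063 for Glo1, -0.31 to -0.23 for Adh5, -0.11 to 0.017 for Aldh9a1, -0.052 to 0.093 for Aldh1a7, -0.10 to 0.018 for Aldh18a1, -0.054 to 0.14 for Aldh6a1, -0.095 to 0.16 for Khk, -0.029 to 0.076 for Hagh, -0.023 to 0.059 for Slc6a6, -0.074 to 0.0043 for Fn3krp, -0.0026 to 0.063 for Gclm and -0.034 to 0.091 for Esd. Relations with an adjusted exact p under 0.05 fell from 3 to between 0 and 1, with r of 0.759 to 0.924 for Aldh1a1, 0.727 to 0.926 for Aldh3a1 and -0.909 to -0.492 for Sord.

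Other directions that turned were as follows. Without crystallins the log2 fold change was -0.00085 for Hagh, -0.0025 for Park7, -0.0092 for Slc6a6 and -0.00095 for Gclm, and under quantile normalization -0.00079, -0.0030, -0.0061 and -0.0016. With the epithelium covariate it was 0.46 for Aldh3a1, 0.046 for Aldh2, -0.013 for Sord, 0.11 for Aldh1a7, -0.026 for Esd, -0.021 for Hagh and 0.076 for Slc2a1. With the rod covariate it was 0.088 for Aldh9a1, -0.30 for Aldh6a1, -0.035 for Cbr1, -0.13 for Khk, -0.12 for Slc6a6 and -0.056 for Gclm. Aldh2, Akr1b3 and Aldh9a1 had the fewest reads, 240 to 646 per library, with a counting error in Ct of 5.56, 4.92 and 4.48%. Their spread within Ct was larger, and it also holds the differences between separate pools. Whether low reads had a part in the changes of direction was not tested.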

Other observations

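The 10 genes were also compared with each other over the 8 libraries, 45 pairs in all, and no pair passed the adjustment. The closest was Aldh1a1 with Aldh3a1 (Pearson r = 0.844, exact permutation p = 0.00952, adjusted 0.238; Spearman rho = 0.714, p = 0.0576, adjusted 0.575), with r = 0.50 once the 2 libraries farthest from the median were left out. Aldh2 and Sord ran in opposite directions (r = -0.786, exact p = 0.0139, adjusted 0.238; rho = -0.667, p = 0.0831, adjusted 0.575), and r was -0.566 without the 2 farthest libraries. Adh5 had no pair with an adjusted p under 0.05.

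Set beside Foxe3 in the same library, a ratio chosen after the values were seen and therefore given with no test, Aldh3a1 stood at between 0.744 (replicate 1) and 1.001 (replicate 3) of the Foxe3 level in Ct and between 1.02 (replicate 1) and 1.22 (replicate 3) in CS-exposed libraries. The 2 nearest libraries, Ct replicate 3 and CS replicate 1, differed little. Aldh3a1 itself was most like Rnf145 (r = 0.978), Htra3 (0.972) and Ndn (0.962) among 2744 genes, a description over the same 8 libraries, and Aldh3a1 was added to this search after its spread had been seen.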
